A study of Homo sapiens with 12 samples.

Results

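CpG-poor promoters of protein-coding genes were examined for dimethylated lysine 4 of histone H3 (H3K4me2), a mark of promoters and enhancers, in U-937 cells, an established human monocytic leukaemia line that the labels class as acute myeloid leukaemia cells. A promoter was taken as the 1000 bp window centred on the canonical start site of a protein-coding gene in GENCODE release 44 on the human genome build hg38 (GRCh38). Start sites in a divergent pair within 1000 bp of each other were set aside, and a promoter was called CpG-poor when its window held less than 0.35 of the CpG dinucleotides that its C and G content predicts (the observed/expected ratio). Of 19970 start sites on chromosomes 1 to 22 and X, 4477 (22.4%) met this rule, which used the reference sequence and no measured value. Another 13 lay on chromosome Y, which holds no peak in the lists, and were not analysed. The other start sites were 11510 CpG-rich ones (ratio of at least 0.6), 2088 of intermediate ratio and 1895 in divergent pairs.

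The cells had been treated for 24 h with the vehicle DMSO, with all-trans retinoic acid (ATRA), with Corin, or with ATRA and Corin together, and the labels give 0.1 µM for every treatment, DMSO included. All groups were the same line, with 2 H3K4me2 libraries and 1 input library in each treatment, 12 libraries in all. ATRA is the natural ligand of the retinoic acid receptors, and Corin is a synthetic inhibitor of the CoREST complex that blocks both its demethylase LSD1 and its histone deacetylases. The series concerns the interplay of CoREST, the acetyltransferase p300 and retinoic acid signalling.

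The deposited values were 4 peak lists, 1 per treatment, each made from that treatment's H3K4me2 libraries together. There is therefore no spread between replicates for any value below. The 95% Wilson intervals given with percentages cover only the counting of promoters. The DMSO list had 65172 peaks, the ATRA list 66385, the Corin list 73997 and the combined list 83969, and they covered 73.4, 83.7, 95.02 and 109 Mb of the genome. Read depth is not given in the sources used here, and the part that depth has in list length was not tested. The comparisons against DMSO share the 1 DMSO list. In bulk chromatin, a change in the share of cells that carry the mark and a change of its amount per cell cannot be told apart.

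CpG dinucleotides are rare in the human genome because methylated cytosine is prone to deamination, and they persist mainly in CpG islands, which hold most promoters of housekeeping genes. Promoters without an island are typical of genes restricted to 1 tissue or cell state, and their activity depends largely on lineage transcription factors. LSD1 removes methyl groups from mono- and dimethylated H3K4 and, in myeloid cells, acts with the repressors GFI1 and GFI1B. PU.1, the product of SPI1, is the chief ETS-family factor of monocytes and binds sites built around the core GAGGAA.

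The contrast in sequence is visible in the 200 bases just before the start site, printed here 5′ to 3′ on the gene's strand from the hg38 reference, with capitals marking CG dinucleotides and the word GAGGAA or its reverse complement TTCCTC. ITGAM, encoding the CD11b integrin chain (chr16:31259775-31259974, + strand), carried H3K4me2 in all 4 lists. S100A12, a calgranulin of monocytes and neutrophils (chr1:153375622-153375821, − strand), and CD52, a small leukocyte surface glycoprotein (chr1:26317758-26317957, + strand), were marked in every list but DMSO. PI16, a secreted peptidase inhibitor (chr6:36954538-36954737, + strand), was marked in both Corin-containing lists. GBP1, an interferon-induced GTPase (chr1:89065209-89065408, − strand), was marked in the ATRA and Corin list alone, and IGLL1, a surrogate light chain of pre-B cells (chr22:23580291-23580490, − strand), in the DMSO list alone. TCFL5, a CpG-rich gene for a basic helix-loop-helix factor (chr20:62861823-62862022, − strand), is shown for contrast. It was chosen because its start base was uncovered in both Corin-containing lists.
ITGAM: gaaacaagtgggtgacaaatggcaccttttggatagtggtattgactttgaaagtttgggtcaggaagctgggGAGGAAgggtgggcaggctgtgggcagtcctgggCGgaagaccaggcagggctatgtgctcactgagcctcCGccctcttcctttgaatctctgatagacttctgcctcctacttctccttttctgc
S100A12: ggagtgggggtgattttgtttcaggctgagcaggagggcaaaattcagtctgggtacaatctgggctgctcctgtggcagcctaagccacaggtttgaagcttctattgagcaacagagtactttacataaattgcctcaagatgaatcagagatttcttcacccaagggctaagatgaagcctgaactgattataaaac
CD52: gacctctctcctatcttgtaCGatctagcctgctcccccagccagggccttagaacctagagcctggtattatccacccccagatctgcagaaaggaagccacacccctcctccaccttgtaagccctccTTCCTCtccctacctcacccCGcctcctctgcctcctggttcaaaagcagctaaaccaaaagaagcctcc
PI16: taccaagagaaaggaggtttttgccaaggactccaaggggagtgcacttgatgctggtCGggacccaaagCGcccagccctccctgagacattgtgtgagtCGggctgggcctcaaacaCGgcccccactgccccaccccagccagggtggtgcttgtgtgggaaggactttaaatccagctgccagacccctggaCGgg
GBP1: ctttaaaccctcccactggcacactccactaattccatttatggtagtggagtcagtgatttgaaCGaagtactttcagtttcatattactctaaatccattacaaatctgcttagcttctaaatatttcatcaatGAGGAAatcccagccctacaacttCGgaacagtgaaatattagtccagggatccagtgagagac
IGLL1: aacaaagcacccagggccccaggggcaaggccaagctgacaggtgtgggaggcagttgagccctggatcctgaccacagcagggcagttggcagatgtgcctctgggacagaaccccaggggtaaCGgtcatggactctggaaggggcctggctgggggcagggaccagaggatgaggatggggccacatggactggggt
TCFL5: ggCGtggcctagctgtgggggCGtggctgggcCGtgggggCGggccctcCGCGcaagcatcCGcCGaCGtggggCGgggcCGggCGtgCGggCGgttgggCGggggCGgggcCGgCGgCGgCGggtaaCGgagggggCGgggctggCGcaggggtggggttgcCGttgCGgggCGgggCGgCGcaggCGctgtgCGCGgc
The 200 bases of TCFL5 hold 31 CG dinucleotides. The CpG-poor sequences hold from 0 (S100A12) to 5 (PI16). A GAGGAA word, on either strand, stands in ITGAM, CD52 and GBP1.

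Over the whole class the median observed/expected ratio was 0.206, against 0.803 for CpG-rich promoters, and the median 1000 bp window held 11 CpGs, against 84. The median GC content was 47.9%, against 65.4%. The start of another gene lay within 1000 bp of 320 members (7.15%), and the windows of 122 members overlapped the window of another member. These members are not independent of their neighbours.

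A promoter is called marked below when at least 1 base of its window lay under a peak. By this measure 820 of the 4477 CpG-poor promoters (18.3%, interval 17.2% to 19.5%) were marked in DMSO, 854 (19.1%) with ATRA, 882 (19.7%) with Corin and 962 (21.5%, 20.3% to 22.7%) with ATRA and Corin. CpG-rich promoters were marked in 75.7%, 75.7%, 75.5% and 75.6% of cases in the same order. The CpG-poor share was thus lowest in the DMSO list and highest with both drugs, with intervals that do not overlap, while the CpG-rich share moved by less than 0.3 percentage points. With the lists held to an equal number of peaks, the CpG-poor share with both drugs was 20.1% (18.95% to 21.3%), and its interval overlapped that of DMSO. The same promoters were scored in each list, so overlap of these intervals does not measure a difference between lists. At equal list length the combination gained 129 CpG-poor promoters and lost 49 against DMSO. Intermediate promoters stood at 33.2%, 33.4%, 33.2% and 33.9%. The cut at 0.35 fell on no step in the data: the 607 members with ratios of 0.30 to 0.35 were marked in 23.4% of cases in DMSO, and the 422 promoters just outside, at 0.35 to 0.40, in 23.2%.

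The start base itself lay under a peak in 672 CpG-poor promoters in DMSO (15.01%), 708 with ATRA (15.8%), 727 with Corin (16.2%) and 775 with both drugs (17.3%). The CpG-rich class went the other way on this measure: 60.7% of its start bases were covered in DMSO and 61.2% with ATRA, but 47.2% with Corin and 46.7% with both. The mean number of bases under peaks in a CpG-poor window was 142, 153, 159 and 174 across DMSO, ATRA, Corin and both drugs. CpG-rich windows had 679, 688, 640 and 642.

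**Figure D1:**
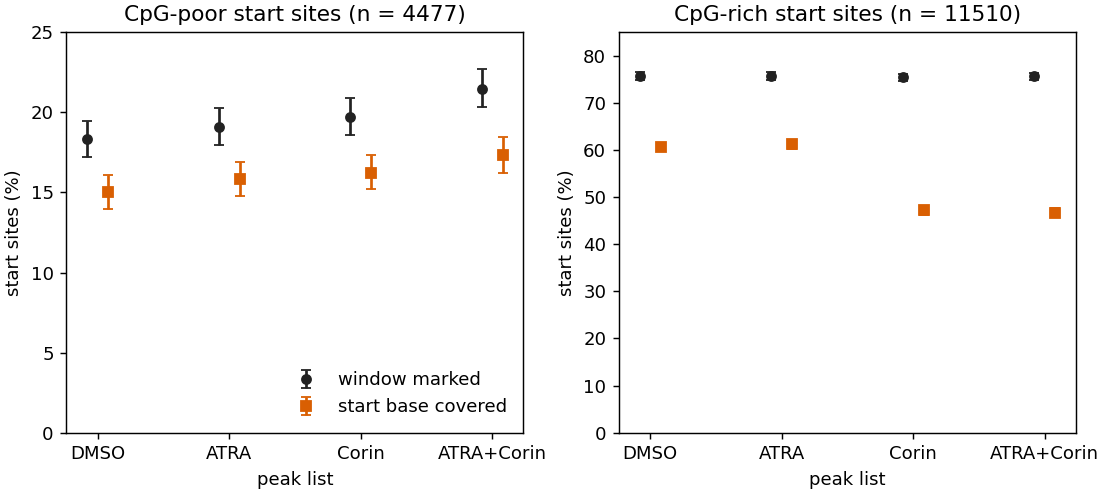
Percentage of CpG-poor (left) and CpG-rich (right) start sites whose 1000 bp window was marked (circles) or whose start base lay under a peak (squares) in each peak list, with 95% Wilson intervals; the vertical scales differ, and some intervals are smaller than the symbols. CpG-poor promoters stood highest on both measures in the ATRA+Corin list (21.5% and 17.3%), while the covered share of CpG-rich start bases was 60.7% in DMSO and 46.7% in the ATRA+Corin list.

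Membership in the lists was mostly all or none. Of the CpG-poor promoters, 3454 (77.1%) were marked in no list, 752 (16.8%) in all 4 and 271 (6.05%) in 1 to 3 lists. The share in 1 to 3 lists was 2.87% of intermediate promoters, 1.10% of CpG-rich ones and 0.422% of those in divergent pairs. The commonest mixed pattern was a mark with ATRA and Corin alone (61 promoters), followed by both Corin-containing lists (43), all 3 drug lists (38) and both ATRA-containing lists (30). Marks in DMSO alone were found at 15 promoters. ATRA alone and Corin alone accounted for 12 and 18, and the pair of single-drug lists without the combination for 1.

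Promoters gained (marked with the drug and not in the reference list) outnumbered those lost under each comparison. ATRA against DMSO gave 81 gained and 47 lost CpG-poor promoters, against a background over all 19970 start sites of 0.636% gained and 0.461% lost. Corin against DMSO gave 100 gained and 38 lost (backgrounds 0.711% and 0.586%). With both drugs 172 were gained and 30 lost (backgrounds 1.18% and 0.476%), so that 3.84% of the class was gained, and the class supplied 72.9% of the gained promoters of all kinds and 31.6% of the lost. Against the ATRA list, the combination gained 132 and lost 24 (backgrounds 0.931% and 0.401%). Against the Corin list it gained 109 and lost 29 (backgrounds 0.856% and 0.275%).

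Most CpG-rich promoters were already marked, so gains were also counted over the promoters that the reference list left unmarked. With both drugs against DMSO, 4.70% (4.06% to 5.44%) of the 3657 unmarked CpG-poor promoters were gained, against 1.94% (1.33% to 2.80%) of intermediate and 1.33% (0.963% to 1.82%) of CpG-rich ones. Losses over the marked promoters were also more frequent in the CpG-poor class, at 3.66% (2.57% to 5.17%) of 820, than in the CpG-rich class, at 0.551%. Intermediate promoters lost 2.02% (1.21% to 3.36%), an interval that overlaps the CpG-poor one.

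**Figure D2:**
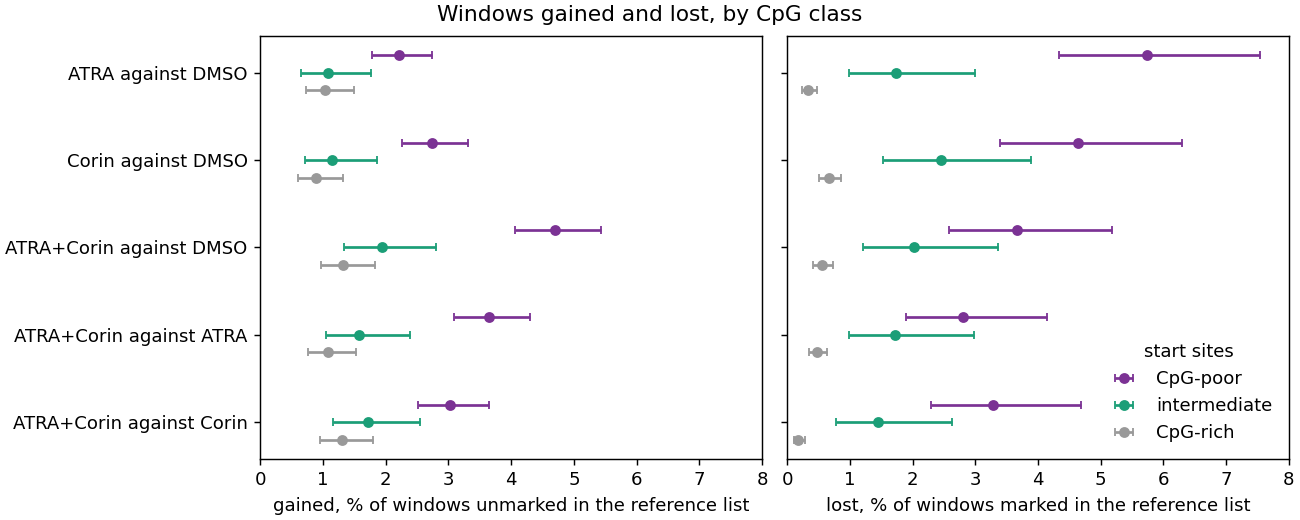
Promoters gained, as a percentage of those unmarked in the reference list (left), and lost, as a percentage of those marked in it (right), for CpG-poor, intermediate and CpG-rich start sites in 5 comparisons, with 95% Wilson intervals. The CpG-poor class has the highest point estimate in every row of both panels, and its highest gain is 4.70%, with ATRA+Corin against DMSO.

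The definition of a mark bears on these counts. If a peak's summit had to lie inside the window, 12.2% of CpG-poor promoters were marked in DMSO, 11.5% with ATRA, 11.6% with Corin and 11.97% with both drugs. Losses then exceeded gains in each comparison against DMSO: 129 lost and 100 gained for ATRA, 158 and 131 for Corin, 190 and 180 for the combination. When each list was held to its 65172 strongest peaks, the combination gained 129 and lost 49 CpG-poor promoters against DMSO, and Corin gained 78 and lost 49.

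The peaks at gained promoters were weak to moderate. Those of the combination against DMSO had a median −log10 q of 8.42 and a median fold over input of 5.11, both the authors' own values for a peak within its list. In the same list, the strongest peak of each marked CpG-poor promoter had medians of 63.4 and 17.2, and over CpG-rich promoters of 95.5 and 23.6. Peaks lost were weak too, with a median −log10 q in DMSO of 4.30 for ATRA, 4.09 for Corin and 6.61 for the combination. The strongest DMSO peaks of marked promoters had medians of 46.3 in the CpG-poor class and 87.9 in the CpG-rich class. Lost windows were not compared between the classes at like peak strength. Of the 172 gained promoters, 138 (80.2%) had peaks that met no DMSO peak at all, and the other 34 were reached by a peak that overlapped one in DMSO. The start base was covered at 97, and the summit lay in the window at 126 (73.3%). At only 7 did the peak also cover an annotated start whose own CpG ratio was not below the CpG-poor cut. Such a start could belong to the same gene. Another gained promoter lay within 100 kb of 31 gained ones.

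The start base was kept more often at CpG-poor than at CpG-rich promoters once Corin was present. Of the 672 CpG-poor start bases under a DMSO peak, 94.0% were also covered with ATRA, 92.1% (89.8% to 93.9%) with Corin and 92.9% (90.7% to 94.6%) with both. Of 6983 CpG-rich start bases, 91.9% were kept with ATRA, 74.5% (73.4% to 75.5%) with Corin and 73.4% (72.3% to 74.4%) with both. In numbers, Corin against DMSO gained 108 and lost 53 CpG-poor start bases, where the CpG-rich class gained 235 and lost 1784 (all start sites, 2.31% gained and 11.6% lost). The combination gained 151 and lost 48 in the CpG-poor class, against 253 and 1859 (all start sites, 2.68% and 11.9%). ATRA alone gained 76 and lost 40 CpG-poor start bases (all start sites, 4.69% and 3.89%).

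The kept share varied with CpG content. With Corin it was 88.5% (71.02% to 96.0%) of only 26 start bases at ratios of 0 to 0.1, 94.1% at 0.1 to 0.2, 92.5% at 0.2 to 0.3, 90.4% at 0.3 to 0.4, 84.3% at 0.5 to 0.6 and 71.1% at 0.9 to 1, whereas with ATRA it stayed between 90.2% and 95.5% over all bins. The difference between the classes was also present at like peak strength. For DMSO peaks of −log10 q 10 to 30, Corin kept 87.7% of CpG-poor and 55.9% of CpG-rich start bases, and for those of at least 60 it kept 97.2% and 79.8%. TCFL5, printed above, is an example of a CpG-rich start base that was not kept. It was picked as the CpG-rich start site uncovered in both Corin-containing lists with the highest −log10 q in DMSO. Its start base was covered in DMSO and with ATRA. With Corin and with both drugs, 638 and 810 of its 1000 window bases remained under peaks.

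**Figure D3:**
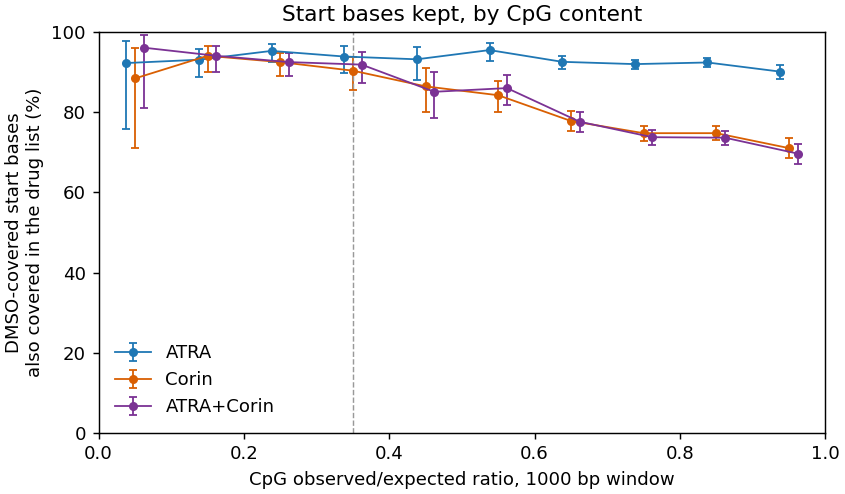
Percentage of start bases under a DMSO peak that were also under a peak with ATRA, Corin or ATRA+Corin, by the CpG observed/expected ratio of the window in steps of 0.1, with 95% Wilson intervals; the dashed line marks 0.35. The Corin values go from 94.1% at 0.1 to 0.2 down to 71.1% at 0.9 to 1, and the ATRA values stay above 90%.

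Where a CpG-poor promoter was marked in all 4 lists (752 promoters), cover was densest 100 bp after the start, at 91.1% in DMSO, 91.8% with ATRA, 93.1% with Corin and 92.8% with both drugs. The lists separated farther into the gene. At 2000 bp after the start, 34.8% of these promoters had a peak in DMSO, 40.03% with ATRA, 52.3% with Corin and 61.4% with both. At 2000 bp before it the shares were 20.2%, 23.4%, 26.7% and 31.1%. CpG-rich promoters marked in all lists (8648) had their densest cover 200 bp after the start in DMSO and 400 bp after it with Corin, and their start base was covered in 80.6% of cases in DMSO and 62.8% with Corin, against 85.5% and 87.9% for CpG-poor ones. Away from the start the lists separated in the CpG-rich class too. At 2000 bp after it the shares were 39.1%, 42.6%, 59.9% and 63.1%, and at 2000 bp before it 14.6%, 16.3%, 22.1% and 24.7%.

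**Figure D4:**
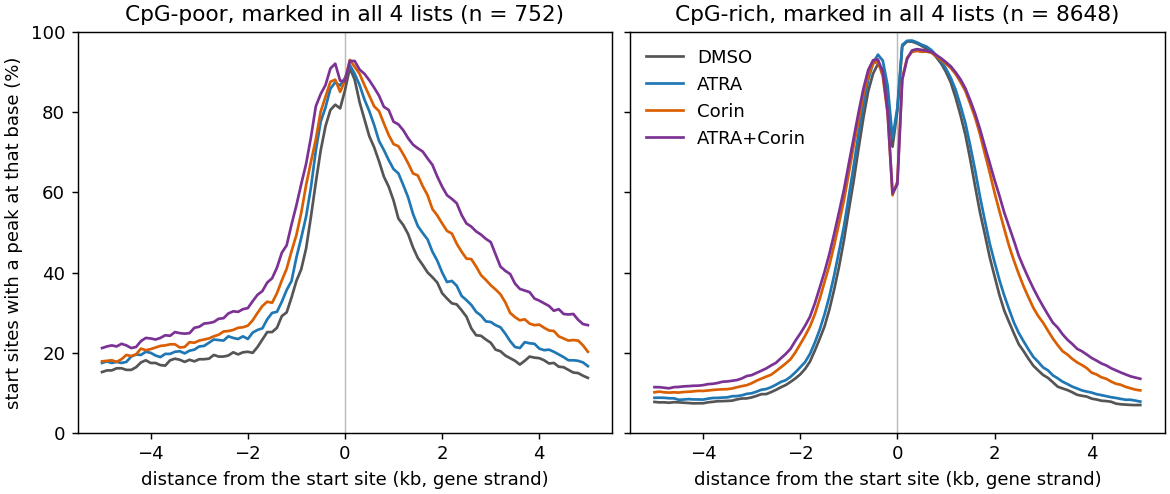
Percentage of promoters with a peak at each distance from the start site (kb, positive into the gene) in each list, for CpG-poor (left) and CpG-rich (right) promoters marked in all 4 lists. At 2 kb into the gene the ATRA+Corin curve lies above the DMSO curve in the CpG-poor class (61.4% against 34.8%) and in the CpG-rich class (63.1% against 39.1%). The dip next to the start of CpG-rich promoters is deeper in both Corin-containing lists.

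Peaks over the start were also wider. At the 575 CpG-poor start bases covered in all 4 lists, the peak over the start had a median width of 2130 bp in DMSO, 2553 bp with ATRA, 3022 bp with Corin and 3609 bp with both drugs. The median ratio of a promoter's own width to its DMSO width was 1.10, 1.31 and 1.54, and the peak was wider than in DMSO at 424, 480 and 509 of the 575. At 4455 CpG-rich starts the ratios were 1.04, 1.12 and 1.16. Width depends on the calling of each list, and its relation to read depth was not tested.

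The strongest DMSO peaks over CpG-poor start bases in promoters marked in all lists belonged to FUT7, a fucosyltransferase that makes selectin ligands, PSTPIP1, a cytoskeletal adaptor of leukocytes, CST7, a cystatin of immune cells, MYBPC2, a myosin-binding protein of muscle, GPR132, a lipid-sensing receptor of macrophages, and ITGB2, the common beta chain of leukocyte integrins. FUT7, PSTPIP1, GPR132 and ITGB2 had 1000 covered bases in every list, and CST7 had 835, 1000, 886 and 1000. MYBPC2 went against the class, with 780 bases in DMSO, 678 with ATRA, 571 with Corin and 479 with both, where its start base was uncovered. The peaks at FUT7 and ITGB2 also covered an annotated start, of the same or another gene, whose CpG ratio was not below the CpG-poor cut.

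The monocyte and macrophage genes were the most marked of the large gene groups. Of 61 such genes with CpG-poor promoters, 48 (78.7%) were marked in DMSO, 52 with ATRA, 52 with Corin and 55 (90.2%) with both drugs, and a median of 849 of the 1000 window bases lay under peaks in DMSO, where the median over the whole class was 0. The 48 marked in DMSO were marked in all lists. SPI1, the gene of PU.1, had 1000 window bases covered in every list, under peaks 5064, 5611, 6667 and 8095 bp wide in DMSO, ATRA, Corin and both. ITGAM was also covered in full in every list, and its peak was 1642, 2264, 4155 and 4854 bp wide in that order. CSF1R, the receptor for macrophage colony-stimulating factor, had 781, 1000, 824 and 1000 bases covered, under peaks of 1051, 2746, 5861 and 6299 bp. CD86, a costimulatory ligand repressed by LSD1 in leukaemia cells, had 242 covered bases in DMSO, 507 with ATRA, 968 with Corin and 1000 with both. CYBB, the catalytic subunit of the phagocyte oxidase, had 515, 944, 961 and 1000 bases covered.

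The 7 monocyte and macrophage genes gained with both drugs were CD163, CLEC4A, CLEC7A, FPR3, S100A12, TLR7 and VSIG4, and none was lost. S100A12 had no covered base in DMSO, 325 with ATRA, 873 with Corin and all 1000 with both. CLEC7A, encoding the beta-glucan receptor dectin-1, had 0, 762, 682 and 1000 bases covered. CLEC4A, an inhibitory lectin, had 0, 200, 804 and 934. As genes gained with both drugs, all 7 had no covered base in DMSO by definition. CD163, the haemoglobin scavenger receptor, was marked in the Corin list (507 bases) and the combination (697), and VSIG4, a complement receptor of tissue macrophages, with ATRA (403) and the combination (352). FPR3, a formyl peptide receptor, and TLR7, a sensor of single-stranded RNA, had 394 and 259 bases under weak peaks (folds 4.16 and 3.39) in the combination alone. The 6 members of the group marked in no list were ADGRE2, FCGR1A, FCGR2B, FCGR3A, FCGR3B and MRC1. The Fc receptor genes have near-identical copies, which makes those calls uncertain.

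Granule protein genes, which encode the stored proteases and antimicrobials of granulocytes and monocytes, were marked at 11, 11, 12 and 13 of 23 promoters in DMSO, ATRA, Corin and both. LYZ, for lysozyme, had 1000, 1000, 862 and 898 bases covered, and its start base was uncovered in the combination. CTSG, for the protease cathepsin G, had 876 bases in DMSO and 1000 in the 3 drug lists. MMP8, a neutrophil collagenase, was gained with Corin (648 bases) and with both drugs (904). Its peaks were weak, with folds of 3.29 and 4.15 and −log10 q of 2.49 and 4.20. CEACAM8, a granulocyte adhesion molecule, was gained with both drugs only (603 bases, fold 4.17). MPO, for myeloperoxidase, was marked in no list.

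The leukocyte receptor families (LILR, SIGLEC, CD300, FCRL, CEACAM, MS4A, C-type lectins and TREM) had 94 CpG-poor promoters, of which 45 (47.9%), 50, 52 and 57 (60.6%) were marked. The combination gained 12 and lost none. FCRL1, FCRL2, FCRL4 and FCRL5, Fc receptor-like genes best known from B cells, lie in 1 stretch of chromosome 1 and were among them. FCRL1 had 0 bases covered in DMSO, 212 with ATRA, 528 with Corin and 747 with both. FCRL2 had none in DMSO and ATRA, 413 with Corin and 828 with both, under weak peaks (folds 2.97 and 3.42). FCRL4 and FCRL5 had 217 and 460 bases in the combination alone. SIGLEC11, an inhibitory sialic acid receptor of macrophages, had 504 bases with ATRA, 365 with Corin and 499 with both, with none in DMSO.

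Chemokine and chemokine receptor genes went from 18 marked of 54 in DMSO (33.3%) to 20 with ATRA, 24 with Corin and 28 with both (51.9%). The combination gained 10 and lost none. CCR2, the receptor that draws monocytes to inflamed tissue, was marked in all lists with 892, 896, 993 and 1000 covered bases. CCL4, a ligand of T cells and macrophages, had 0, 229, 710 and 719. CXCL10, an interferon-induced ligand, had 0, 369, 88 and 654, so that its cover with ATRA exceeded that with Corin. CXCR5, a receptor of follicular lymphocytes, had 0, 1000, 134 and 1000, full in both ATRA-containing lists. CCL22, a macrophage-derived ligand, had 354 bases in the combination alone. Copies of CCL3 and CCL4 share sequence, which makes those counts uncertain.

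Cytokine and inflammasome genes were marked at 16, 19, 17 and 21 of 33 promoters, and the combination gained CASP5, GBP1, IL12B, IL1A and TNFAIP6. IL1B, the main inflammasome product, was marked in all lists with 483, 841, 823 and 871 bases, and its start base was covered in the combination alone. TNFAIP6, a secreted hyaluronan-binding protein, had 0, 263, 0 and 947 bases. IL1A, a constitutive alarmin of the interleukin-1 family, had 0, 595, 108 and 873, under weak peaks (folds 3.92, 2.31 and 4.31 in the drug lists). CASP5, an inflammatory caspase, had 934 and GBP1 had 659 bases with both drugs and none elsewhere. These peaks too were weak (folds 3.76 and 5.11, −log10 q 4.94 and 6.66). IL12B, a subunit of interleukins 12 and 23, was entered by only 27 bases with ATRA and 213 with both from a peak whose summit lay over 1 kb upstream.

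The 5 groups above held 252 promoters between them, of which 124 were unmarked in DMSO. The combination gained 33 of these 124 (26.6%, 19.6% to 35.01%) and lost none. Among the 3533 other CpG-poor promoters unmarked in DMSO it gained 139 (3.93%, 3.34% to 4.63%). ATRA gained 15 and Corin 17 of the 124. The groups thus supplied 19.2% of the promoters gained in the class by the combination, and the other 80.8% lay outside them. The groups were chosen with earlier results of these data known. B cell and NK genes not in these groups were counted among the 3533 others. Some members lie in gene clusters, such as the FCRL genes, while the intervals treat each promoter as independent. The contrast is therefore a description and not a test of preferential gain.

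Most groups of other lineages were marked less often than the whole class, which stood at 18.3% in DMSO and 21.5% with both drugs. Keratin and epidermal genes were marked at 6 of 163 promoters in DMSO (3.68%) and 6 with both drugs, and olfactory receptors at 3 and 4 of 396 (0.758% and 1.01%). T cell genes had 1 of 18, in each list CD2, and erythroid and platelet genes 1 of 22 in DMSO, ITGA2B. Liver genes had 2 of 30 in DMSO and 3 with both drugs, cytochromes P450 4 and 4 of 34, and type I interferons 1 and 2 of 17. Beta-defensins had 1 and 0 of 39, and taste receptors 2 and 1 of 26. NK and cytotoxic genes, at 3 and 4 of 16 (18.8% and 25%), stood near the class. In DMSO, the intervals of keratin and epidermal genes (1.70% to 7.80%), olfactory receptors (0.258% to 2.20%) and beta-defensins (0.454% to 13.2%) lay below 18.3%. Those of the other groups in this paragraph included it. A count of 0 among 39 allows a share of up to 7.69%.

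B cell genes were an exception among the lymphoid groups, with 5, 4, 7 and 7 of 12 marked. CD79A, a chain of the B cell receptor, had 974, 1000, 1000 and 962 covered bases, and CD22, a sialic acid receptor, had 998, 848, 1000 and 1000. MS4A1, which encodes CD20, was marked in no list. IGLL1 was covered in full in DMSO (fold 7.39, −log10 q 12.1, width 2581 bp) and had no covered base in any drug list.

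**Figure D5:**
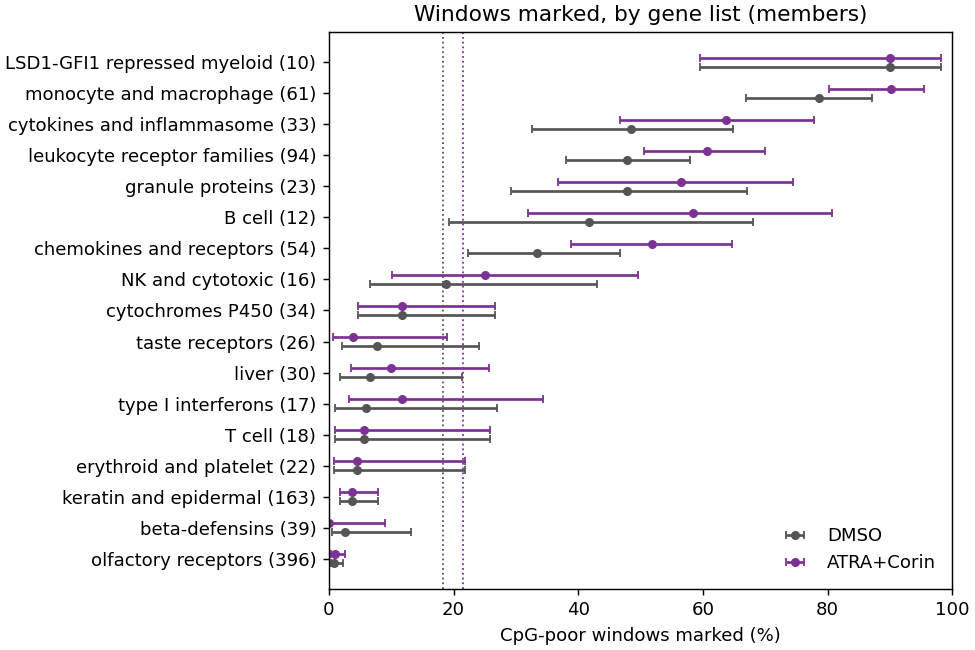
Percentage of CpG-poor promoters marked in the DMSO and ATRA+Corin lists for the 17 gene lists with at least 10 members (number of members in parentheses), with 95% Wilson intervals; the dotted lines give the whole class, 18.3% and 21.5%. The myeloid, cytokine, chemokine and receptor lists lie to the right of the lines, with monocyte and macrophage genes at 78.7% and 90.2%, and keratin, olfactory and beta-defensin genes to the left.

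Among listed targets of the drugs' pathways, 5 of 22 retinoid-response genes and 10 of 17 genes repressed by LSD1 with GFI1 had CpG-poor promoters. The class held 22.4% of all start sites. All 5 retinoid-response genes with CpG-poor promoters were marked in DMSO. CEBPE, a granulocytic transcription factor, and ASB2, an adaptor of ubiquitin ligases induced by retinoic acid, had 1000 covered bases in every list, under CEBPE peaks of 4279, 8327, 4582 and 8951 bp. STRA6, a retinol transporter, had 591, 891, 529 and 796. CCL2, a monocyte-attracting chemokine, had 1000 in every list, under peaks of 1870, 2230, 3375 and 2701 bp, widest with Corin. The CpG-poor canonical start of RARA, the receptor itself, had 227 bases under a weak peak in DMSO (fold 4.20), none with either single drug and 561 with both. Of 10 genes listed as repressed by LSD1 with GFI1, 9 were marked in each list, with CD86, ITGAM and SPI1 described above.

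The largest single gains lay mostly outside these groups. PI16 had no covered base in DMSO or with ATRA and 1000 with Corin and with both, where the summit lay 29 and 9 bp before the start. CD52 had 0, 718, 1000 and 1000 bases, at a fold of 42.7 with both drugs and a peak of 7838 bp. C10orf105, an uncharacterised gene, had 939 bases in the combination alone under a 7562 bp peak whose summit lay 3672 bp into the gene. RNF224, a RING-finger gene, had 0, 375, 244 and 1000, and AQP9, a glycerol and water channel of leukocytes, had 0, 249, 530 and 1000. Some gains were an edge only: TNNC1, for cardiac troponin C, had 84, 148 and 115 bases in the drug lists. They came from peaks with summits over 2 kb upstream. These peaks also covered an annotated start whose CpG ratio was not below the CpG-poor cut.

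The strongest peaks lost were often edges of a peak with its summit elsewhere. Over all lost CpG-poor promoters this was less common. The summit lay in the window at 36 of 47 lost with ATRA (76.6%), 28 of 38 with Corin (73.7%) and 20 of 30 with both (66.7%). For promoters gained with both drugs it was 73.3%. RASIP1, a vascular regulator of small GTPases, had 455, 0, 442 and 431 covered bases in DMSO, ATRA, Corin and both, and MTMR11, a myotubularin-related protein, had 188, 0, 228 and 220, so that both were lost with ATRA alone and not with the combination. APOLD1, an endothelial gene, had 386 covered bases in DMSO and 158 with Corin, and none in either ATRA-containing list, and CSRP3, a muscle LIM protein, had 180, 0, 110 and 0. TPSAB1, a mast cell tryptase with near-identical copies, had 92, 0, 100 and 0. PTGER1, a prostaglandin E receptor, had 465, 0, 360 and 0, with its start base covered in DMSO. These 4 make up the pattern of DMSO and Corin without either ATRA-containing list. Outside that pattern, SMIM5, a small membrane protein, had 615, 402, 371 and 0, and NUPR1, a stress-induced chromatin protein, had 734, 473, 0 and 473.

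Marked members differed from unmarked ones in sequence, which the rule did not fix beyond CpG content. The 752 promoters marked in all lists had a median GC content of 53.0%, against 46.5% for the 3454 marked in none and 48.9% for the 172 gained with both drugs. A set of 8 short words was then sought on both strands from 250 bases before to 50 bases from the start, and no word sought contains another. The PU.1-type core GAGGAA was found in 47.7% (44.2% to 51.3%) of promoters marked in all lists, 39.0% (32.0% to 46.4%) of those gained with both drugs and 31.6% (30.03% to 33.1%) of those marked in none. It stood in 24.3% of CpG-rich and 27.3% of all protein-coding promoters. Within each of 4 bands of GC content it was more frequent in promoters marked in all lists than in those marked in none: at 35 to 45% GC it was in 51.3% and 28.7%, and at 55 to 65% in 48.1% and 31.2%. At 45 to 50% GC the shares were 46.9% (37.96% to 56.1%) and 37.2% (33.3% to 41.2%), and at 50 to 55% they were 44.4% (36.7% to 52.3%) and 36.9% (33.02% to 40.9%), with intervals that overlap in both bands.

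The TATA-box word TATAAA was in 23.8% of CpG-poor promoters and 5.03% of CpG-rich ones (9.73% of all). Within the class it was less frequent where the mark was: 15.4% (13.02% to 18.2%) of promoters marked in all lists and 25.9% (24.5% to 27.4%) of those marked in none. On the gene strand and starting 40 to 21 bases before the start, TATAAA was in 6.65% (5.08% to 8.66%) and 10.7% (9.70% to 11.8%). The RUNX-type word TGTGGT was in 25.3% (22.3% to 28.5%) and 16.8% (15.6% to 18.1%), and in 10.7% of all promoters. The core word of nuclear receptor sites, AGGTCA, was in 17.8% and 19.4%, with intervals that overlap, and in 15.1% of the promoters gained with both drugs (11.2% of all). The CCAAT-box word CCAAT was in 30.6% (27.4% to 33.97%) of promoters marked in all lists and 37.8% (36.2% to 39.4%) of those marked in none (36.01% of all). The AP-1-type word TGANTCA was in 13.8% and 11.7% (5.44% of all), and the C/EBP-type word TTGCNNAA in 16.0% and 13.1% (8.12% of all), each with overlapping intervals. The GC-box word GGGCGG was in 15.01% of the class and 79.9% of CpG-rich promoters (61.3% of all). It holds a CG dinucleotide, so the rule that set the classes bears directly on this difference. Within the class GGGCGG was in 25.3% (22.3% to 28.5%) of promoters marked in all lists and 12.6% (11.5% to 13.7%) of those marked in none. The median window of these 2 sets held 14 and 10 CpGs, and the part of CpG content in this difference was not tested. Only GAGGAA was compared within bands of GC content, and the part of GC content in the differences of the other words was not tested. These are matches of letters in a window and are not evidence of binding.

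The class was not evenly marked along the genome. The share marked in DMSO ran from 11.1% (7.23% to 16.7%) of 171 members on chromosome X to 33.3% (24.6% to 43.4%) of 93 on chromosome 22. On chromosome 11, 55 of 465 members were marked (11.8%, 9.20% to 15.1%). On chromosome 19 the figure was 93 of 321 (29.0%, 24.3% to 34.2%).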

How the data were processed

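H3K4me2 ChIP-seq was analysed from 4 peak lists on hg38, 1 per treatment, each called against input; per the submitters' processing notes, Trimmomatic, Bowtie2, Picard and MACS2 were used, with no version given, and the deposited names describe peaks kept by overlap between replicates. Thresholds are not given in the sources used here. Peak positions and summit offsets were used as deposited. The deposited score was not used. The fold (a ratio over input) and the −log10 p and −log10 q are the authors' values at a peak's summit and were used to describe and rank peaks within a list, and to set the q threshold and list length of the alternatives.

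Windows, CpG ratios, peak cover and intervals were computed in Python 3.11.15 with numpy 2.4.6, pandas 2.3.3 and statsmodels 0.14.6, and tested on simulated peaks and windows. The promoters and 18 gene lists were chosen with earlier results of these data known. Named genes were the 6 promoters marked in all lists with the strongest DMSO peaks, the 8 strongest gained and lost per drug against DMSO, the 4 strongest against each single drug, and members of the lists; those described were picked from these after their values were seen. TCFL5, outside the class, was picked separately by its values, as given above. With 1 list per treatment, no test between treatments was possible, and none was made. Alternatives changed the q threshold, list length, window, CpG threshold, neighbours and overlap; 1, the summit rule, was added after the data were seen.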

Additional observations from a re-analysis of the deposited data

How the results depend on the processing

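No paired analysis was possible because each treatment has 1 list made from its libraries together; for the same reason no library could be left out. Of 114 values under 7 alternatives, 93 moved by less than their counting interval or, for counts, by less than 1.5 times, and 21 moved by more. With a −log10 q of at least 5, the marked share was 16.6% in DMSO, 17.9% with ATRA, 18.2% with Corin and 19.8% with both, and 25 promoters were lost with Corin. With 65172 peaks in each list, the combination marked 20.1%, and lost 49 promoters against DMSO and 44 against ATRA. With at least 50% of the window under peaks, the shares were 14.97%, 15.7%, 16.3% and 17.7%. With the summit inside the window they were 12.2%, 11.5%, 11.6% and 11.97%, and losses were 129 for ATRA, 158 for Corin and 190 for both against DMSO, 145 for both against ATRA and 126 against Corin; the cause was not tested. Gains exceeded losses in 37 of 40 pairs of setting and comparison, the exceptions being the comparisons against DMSO under the summit rule (net -29, -27 and -10). Unknown read depth, the single list per treatment and near-identical gene copies limit these values.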
